A study of Homo sapiens with 12 samples.

Results

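Transcripts of 10 inflammatory secreted factors, CXCL1, CXCL2, CXCL3, CXCL5, CXCL8, CXCL16, CCL2, IL6, LIF and PTX3, were followed across the 4 groups of MiaPaca2 RNA-seq libraries. The genes were a named list, chosen with earlier results of these data known. They were found by matching the Ensembl identifiers of the count tables to symbols of GENCODE release 44. All 10 were found among the 63677 identifiers listed. Of these, 8 passed the filter on low counts, which kept 17123 genes in all, and CCL2 and IL6 had 0 counts in every library.

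CXCL1, CXCL2, CXCL3, CXCL5 and CXCL8 are small chemokines with a glutamate-leucine-arginine motif, which attract neutrophils through the receptor CXCR2. In pancreatic ductal adenocarcinoma (PDAC) such chemokines are known for bringing myeloid cells into the tumor. CXCL16 is made as a membrane-bound protein that can be shed, CCL2 attracts monocytes, IL6 and LIF act through receptors that share the gp130 subunit and signal to STAT3, and PTX3 is a secreted pentraxin of innate immunity. Many of these genes are known targets of the transcription factors NF-kB and C/EBP, and their mRNAs are often short-lived.

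MiaPaca2 is an established human PDAC cell line, grown alone, which the study treats as resistant to Vitamin D. Unprimed cells received DMSO (Con) or 1 µM of the Vitamin D analogue calcipotriol (CPT). Epigenetically primed cells received 2 mM glyceryl triacetate, an acetate donor, together with 1 µM of the DNA methylation inhibitor 5-Aza-2′-deoxycytidine (GTA+5-Aza), or these agents with 1 µM CPT (CPT+GTA+5-Aza). All groups were treated for 24 h, and each has 3 libraries. Neither agent of the priming was sequenced alone, so the contributions of GTA and 5-Aza cannot be told apart here. The study's statistics section speaks of independent samples, but neither it nor the labels say whether the libraries came from separate cultures. P-values therefore measure the spread between these libraries, which may be technical.

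Total counts per library ranged from 16162490 to 21224665. The epithelial keratins KRT8 and KRT18 gave most of the summed level of 8 epithelial markers, 2101 to 2653 CPM per library (counts scaled to a common library size), whereas EPCAM and CDH1 stayed at or under 0.152 CPM on average in every group. The 8 markers of exocrine and endocrine pancreas had 0 counts in all libraries. Summed levels of 14 immune markers were 2.79 to 4.18 CPM in Con, 2.69 to 3.93 in CPT, 3.91 to 4.33 in GTA+5-Aza and 3.67 to 5.00 in CPT+GTA+5-Aza, with CD3E and MS4A1 at 0. The 5 endothelial markers summed to at most 0.624 CPM. The 9 fibroblast markers summed to 880 to 932 CPM in Con, 780 to 848 in CPT, 989 to 1070 in GTA+5-Aza and 917 to 944 in CPT+GTA+5-Aza, nearly all of it from COL1A2 and COL3A1, with LUM and FAP at 0. The fibroblast sum was higher in primed than in unprimed libraries under the same CPT condition, and its part in the results below was not tested.

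The genes of 5 members, CXCL8, CXCL1, CXCL5, CXCL3 and CXCL2, lie in 1 cluster on chromosome 4, between 73740519 and 74099196 on GRCh38. The members took 98.1% of all counts from the 16 annotated genes of this 359 kb stretch. The remaining 4 protein-coding genes there were CXCL6 with 195 counts over the 12 libraries, PF4 with 17, PPBP with 4 and PF4V1 with 0. These 4 are neighbours by position and were not chosen by their values.

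Promoter sequence is shown for the members with an entry in the RefSeq table (GRCh38.p14), because the 5 chemokines of the cluster share a short NF-kB sequence. A promoter was found for 7 of the 10 members, and none for CXCL16, CCL2 and LIF. In the 250 bases before each start, both strands were searched for GGNNTTTCC, a loose form of the NF-kB site, for GGAATTTCC, a strict form that the loose one includes, and for TGANTCA, the AP-1 site. The stretch from 140 to 55 bases before the start is printed 5′ to 3′ on the strand of the gene, with matches in capitals. For CXCL3 only 30 bases around the match are given, from 88 to 59 bases before the RefSeq start, because GENCODE places an exon there.
CXCL1 (chr4:73869253-73869338, plus strand): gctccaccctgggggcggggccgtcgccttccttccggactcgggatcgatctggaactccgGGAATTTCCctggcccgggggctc
CXCL2 (chr4:74099250-74099335, minus strand): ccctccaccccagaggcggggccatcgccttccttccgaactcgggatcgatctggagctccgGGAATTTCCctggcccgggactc
CXCL3 (chr4:74038748-74038777, minus strand): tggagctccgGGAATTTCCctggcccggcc
CXCL5 (chr4:73998732-73998817, minus strand): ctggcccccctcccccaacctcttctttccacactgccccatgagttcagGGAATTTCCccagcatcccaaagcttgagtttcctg
CXCL8 (chr4:73740429-73740514, plus strand): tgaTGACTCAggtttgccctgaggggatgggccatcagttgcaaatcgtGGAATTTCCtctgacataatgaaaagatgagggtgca
IL6 (chr7:22727060-22727145, plus strand): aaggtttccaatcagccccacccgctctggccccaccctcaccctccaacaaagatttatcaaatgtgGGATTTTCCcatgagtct
PTX3 (chr3:157436710-157436795, plus strand): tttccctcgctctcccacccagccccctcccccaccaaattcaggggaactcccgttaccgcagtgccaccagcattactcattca

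GGAATTTCC was found in CXCL1, CXCL2, CXCL3, CXCL5 and CXCL8, 5 of the 7 promoters, and in 0.413% of all 35116 promoters of the table. Its first base lay 78 bases before the start in CXCL1 and CXCL3, 77 in CXCL2, 90 in CXCL5 and 91 in CXCL8. The loose form GGNNTTTCC was found in these 5 and in IL6, and in 5.48% of all promoters. It occurred a second time in CXCL1, CXCL2 and CXCL3, as GGGCTTTCC beginning 53 bases before each start. TGANTCA was found in CXCL8 alone, beginning 137 bases before the start, and in 6.57% of all promoters. Neither of the NF-kB forms searched nor the AP-1 site was found in the window of PTX3. Other NF-kB sequences were not searched for, so the window may hold one. Over 30 bases around the NF-kB match, CXCL1 and CXCL2 were identical at 28 positions, CXCL2 and CXCL3 at 28, CXCL1 and CXCL3 at 27, and CXCL1 and CXCL5 at 17. CG dinucleotides, where DNA methylation occurs, numbered 18 in CXCL1, 20 in CXCL2 and 19 in CXCL3 over the 250 bases, against 6 in CXCL5, 5 in PTX3 and 4 in CXCL8 and IL6, where the median of all promoters was 11. These matches describe the letters of the windows and were not tested against the expression values. The promoters are shown because the chemokines share GGAATTTCC, so its share among them is a description and not a test. CXCL1, CXCL2 and CXCL3 are near copies around the match and do not count as separate finds.

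Levels were compared between genes per length, as CPM divided by the annotated exon length in kb. PTX3 was the most abundant member in Con with 80.8 ± 1.30 CPM per kb (SD, n = 3), followed by CXCL1 with 12.2 ± 0.408. LIF (5.55 ± 0.188 CPM per kb), CXCL5 (5.04 ± 0.987) and CXCL16 (4.72 ± 0.978) came next, and in this order the libraries of LIF overlapped those of CXCL5, and those of CXCL5 overlapped those of CXCL16. CXCL8 followed with 3.22 ± 0.522 CPM per kb, CXCL2 with 1.03 ± 0.343 and CXCL3 with 0.325 ± 0.174. These did not overlap their neighbours in Con. The exon length used for CXCL3 was 2219 bases, whereas its longest coding transcript had 1075. Its level per kb and its separation from CXCL2 thus depend on the length used. In CPT the order was the same, but the libraries of CXCL2 overlapped those of CXCL3, as they did in CPT+GTA+5-Aza. In GTA+5-Aza LIF reached 11.2 ± 1.48 CPM per kb and no longer overlapped CXCL5, and in CPT+GTA+5-Aza CXCL16 and CXCL5 exchanged places with overlapping libraries.

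**Figure D1:**
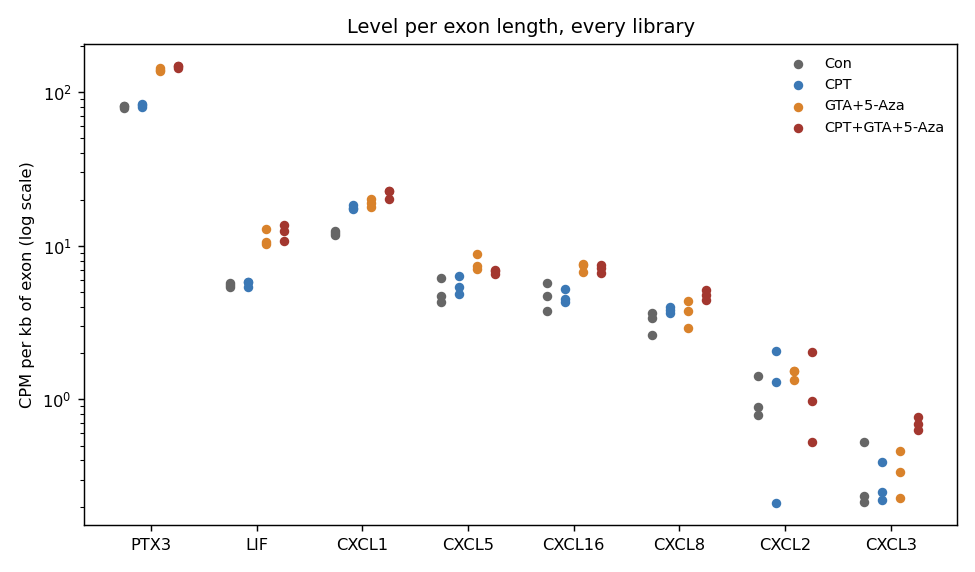
Level of the 8 detected members in CPM per kb of exon (log scale), with 1 point per library and the groups in colors. PTX3 lies at or above 79.3 CPM per kb in every library, whereas CXCL3 lies under 0.762.

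To see how priming acted on these factors, GTA+5-Aza was first compared with Con. PTX3, LIF, CXCL1, CXCL5 and CXCL16 were higher in primed cells, by 1.54-fold to 2.02-fold. Genes were tested by the quasi-likelihood method of edgeR, with Benjamini-Hochberg adjustment over all tested genes, and a gene with an adjusted p under 0.05 was called. These 5 of the 10 members were called, all of them higher. Of all tested genes 9.95% were called higher and 7.53% lower. All libraries of GTA+5-Aza lay above all those of Con for the same 5 members, and for 18.1% of all tested genes. The median log2 fold change was 0.62 over the 8 members tested and 0.0069 over all genes. Because the members were chosen with earlier results of these data known, such counts and medians describe them. Here and below they are not a test of the members as a group.

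Among the neutrophil chemokines, CXCL1 (ENSG00000163739, chr4:73869393-73871308) was measured at 16.6, 17.1 and 16.0 CPM in the Con libraries and at 27.6, 25.9 and 24.5 CPM in GTA+5-Aza. The groups did not overlap, and the log2 fold change was 0.65 (standard error 0.11, adjusted p = 9.71e-05 by edgeR with Benjamini-Hochberg adjustment). CXCL5 (ENSG00000163735, chr4:73995642-73998677) had 14.99, 11.4 and 10.4 CPM in Con and 18.1, 21.4 and 17.1 CPM in GTA+5-Aza. Its lowest primed library was above its highest Con library, and the rise was 0.62 on the log2 scale (standard error 0.15, adjusted p = 0.00354 by the edgeR test).

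CXCL8 (ENSG00000169429, chr4:73740519-73743716), the chemokine also called interleukin-8, had 9.41, 6.81 and 8.75 CPM in Con and 11.4, 9.67 and 7.51 CPM in GTA+5-Aza. These groups overlapped. The log2 fold change was 0.20 with a 95% interval from -0.15 to 0.54 (adjusted p = 0.484 by edgeR with Benjamini-Hochberg adjustment), so a rise of up to 1.45-fold lies within the interval. This interval overlapped those of CXCL1 (0.43 to 0.87) and CXCL5 (0.32 to 0.92), and differences between the genes were not tested.

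CXCL2 (ENSG00000081041, chr4:74097040-74099196) and CXCL3 (ENSG00000163734, chr4:74036589-74038807) were the least abundant detected members. CXCL2 had 21, 26 and 41 counts in the Con libraries and 35, 43 and 38 in GTA+5-Aza, and CXCL3 had 9, 11 and 24 against 19, 15 and 9. Their 95% intervals ran from -0.56 to 1.56 for CXCL2 and from -1.04 to 1.18 for CXCL3 on the log2 scale. A change of 2-fold in either direction thus lies within the interval of CXCL3. The coding transcripts of CXCL1, CXCL2 and CXCL3 resemble each other. Exact windows of 50 bases shared with the other 2 genes made up 5.33% of the longest CXCL1 transcript, 10.1% of CXCL2 and 5.26% of CXCL3, and 0 windows of 150 bases were shared. How reads that map to several genes were counted is not given in the sources used here, so the split between these 3 genes is uncertain to that extent.

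CXCL16 (ENSG00000161921, chr17:4733533-4739928), the ligand of CXCR6, had 13.1, 10.5 and 15.9 CPM in Con and 18.9, 21.2 and 20.8 CPM in GTA+5-Aza. The groups did not overlap, and the log2 fold change was 0.62 (standard error 0.14, adjusted p = 0.00233 by edgeR with Benjamini-Hochberg adjustment). CCL2 (ENSG00000108691, chr17:34255274-34257208) had 0 counts in each library, which allows up to 0.143 to 0.184 CPM, taking 3 counts as the limit for counting error only.

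Of the gp130 cytokines, LIF (ENSG00000128342, chr22:30240453-30246759), leukemia inhibitory factor, had the largest called change among the members. It was measured at 20.7, 21.5 and 22.2 CPM in Con and at 50.01, 40.9 and 39.5 CPM in GTA+5-Aza. Every primed library was far above every Con library, with a 2.02-fold difference (95% interval 1.73 to 2.36; adjusted p = 3.39e-07 by edgeR with Benjamini-Hochberg adjustment). IL6 (ENSG00000136244, chr7:22725884-22732002) had 0 counts in every library, with the same limit as CCL2. A count of 0 holds for the identifier only: IKBKG, an NF-kB pathway gene that nearly all cells use, also had 0 counts in every library, and 52181 of the 63677 identifiers were in GENCODE release 44. The IL6 promoter holds the loose NF-kB form, as do those of 5 expressed chemokines.

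PTX3 (ENSG00000163661, chr3:157436850-157443633) had 154, 153 and 149 CPM in Con and 269, 260 and 262 CPM in GTA+5-Aza. The difference was 1.73-fold (95% interval 1.60 to 1.87), with an adjusted p of 2.19e-10 by the edgeR test with Benjamini-Hochberg adjustment. By the size of its p it stood at rank 3 of the 17123 tested genes. It was also the most deeply counted member, with 2784 to 5295 counts per library, and its SD was 1.61% to 2.27% of the mean within the groups.

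Since the strand setting of the counting is not given, reads of genes that overlap a member on the other strand cannot be told apart from its own. PTX3 lies within VEPH1, which had a log2 fold change of 0.49 without CPT and 0.25 with CPT (adjusted p = 0.00452 and 0.167 by edgeR with Benjamini-Hochberg adjustment), on 5149 counts over the 12 libraries. LIF is overlapped by LIF-AS2, which had 836 counts in all and log2 fold changes of 0.81 and 1.35 (adjusted p = 0.0492 and 0.00147 by the edgeR test), and by LIF-AS1 with 268 counts. CXCL16 is overlapped by MED11, with log2 fold changes of -0.04 and 0.09, and by ZMYND15 with 51 counts. The part of these overlaps in the members' values was not tested. In bulk RNA, more of a transcript in each cell and more cells that make it cannot be told apart.

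**Figure D2:**
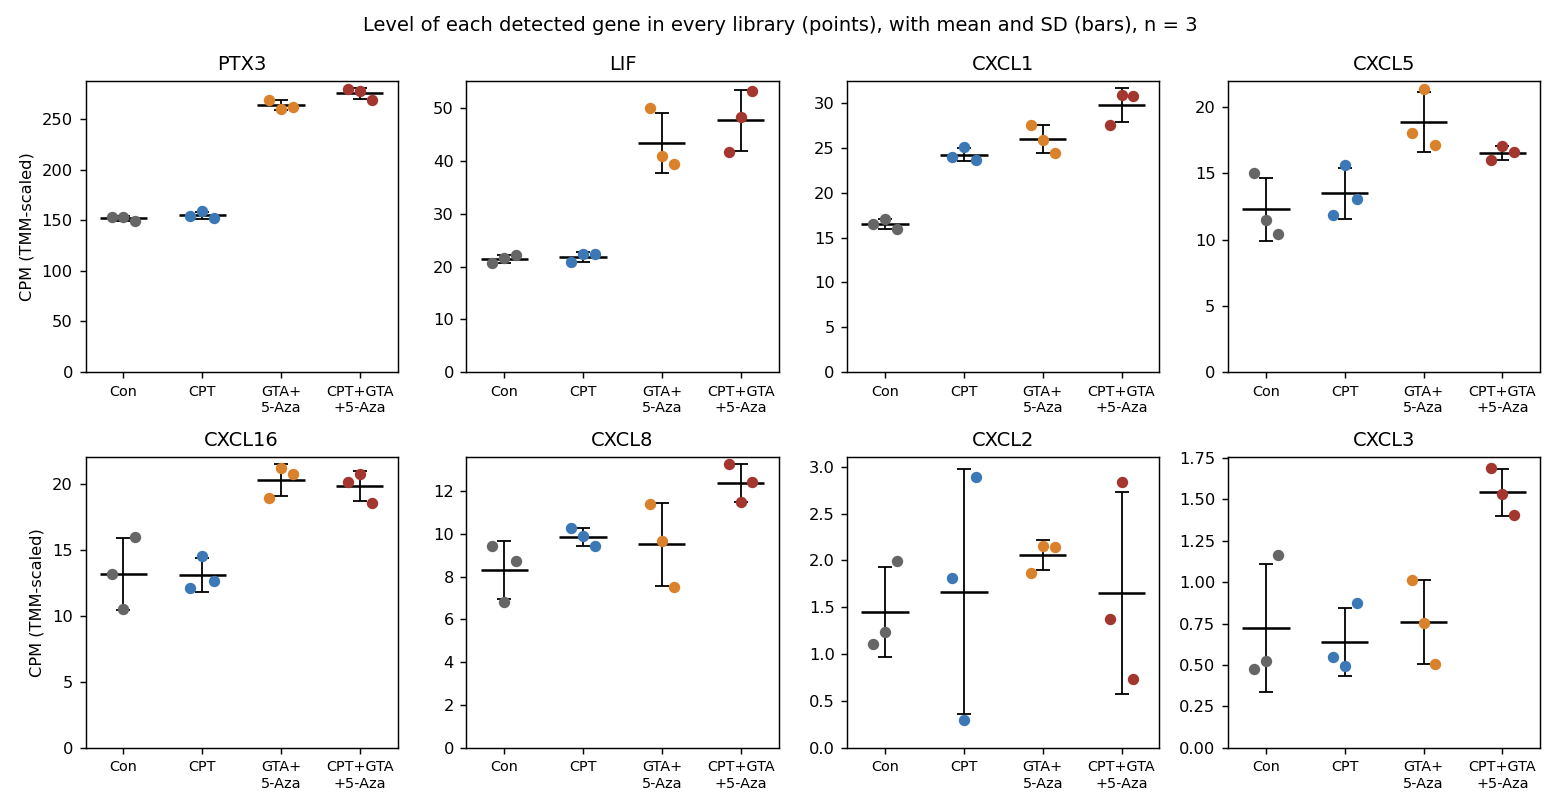
CPM of the 8 detected members in every library (points), with the mean (line) and SD (bars) of 3 libraries per group, on axes that start at 0. PTX3, LIF and CXCL16 stand at one level in the unprimed groups and at a higher level in both primed groups, whereas CXCL1 is also above Con with CPT alone.

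The same question was asked in the presence of CPT, by comparing CPT+GTA+5-Aza with CPT, a comparison that shares no library with the first. PTX3, LIF and CXCL16 were again higher in primed cells, by 1.78-fold, 2.18-fold and 1.51-fold. The edgeR test called these 3 of the 10 members and 0 in the other direction, whereas 9.57% of all tested genes were called higher and 7.39% lower. In 7 members all primed libraries lay above all unprimed ones, compared with 16.4% of all tested genes. When genes were selected by an unadjusted P under 0.05 against no change and an estimated fold of more than 1.5, 5 members passed without CPT (6.82% of all tested genes passed in that direction) and 4 passed with CPT (6.93%), CXCL3 being the one not called by adjusted p. This is a reading of the thresholds in the study's methods, whose wording could also mean a test against that fold change itself.

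PTX3 had 154, 159 and 152 CPM in CPT and 280, 278 and 270 CPM in CPT+GTA+5-Aza, and its p was the smallest of all tested genes in this comparison (adjusted p = 2.44e-10 by edgeR with Benjamini-Hochberg adjustment). LIF had 20.8, 22.4 and 22.3 CPM in CPT and 41.7, 48.3 and 53.2 CPM in CPT+GTA+5-Aza (log2 fold change 1.13, adjusted p = 6.90e-08 by the edgeR test). CXCL16 had 12.1, 14.6 and 12.6 CPM against 20.1, 20.8 and 18.6 CPM (log2 fold change 0.60, adjusted p = 0.00361 by the edgeR test). For each of these genes the groups did not overlap.

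CXCL1 had 24.0, 25.1 and 23.7 CPM in CPT and 27.6, 30.9 and 30.9 CPM in CPT+GTA+5-Aza. The primed libraries were all higher, but the log2 fold change of 0.29 (95% interval 0.08 to 0.51) was not called (adjusted p = 0.0538 by edgeR with Benjamini-Hochberg adjustment). This call depended on the settings, since the adjusted p was 0.0283 with scaling by library size alone, 0.0352 in DESeq2, 0.0442 in edgeR's likelihood ratio test and 0.0477 with a stricter filter. CXCL5 had 11.8, 15.6 and 13.04 CPM in CPT and 16.0, 17.03 and 16.6 CPM in CPT+GTA+5-Aza, and its log2 fold change was 0.29 (95% interval -0.01 to 0.59).

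CXCL8 had 10.3, 9.89 and 9.44 CPM in CPT and 13.3, 11.5 and 12.4 CPM in CPT+GTA+5-Aza, groups that did not overlap, with a log2 fold change of 0.33 (95% interval -0.01 to 0.67). CXCL3 had 10, 10 and 16 counts in CPT and 32, 27 and 23 in CPT+GTA+5-Aza, a log2 fold change of 1.27 with a wide interval from 0.18 to 2.36. The adjusted p was 0.186 for CXCL8 and 0.103 for CXCL3 by the edgeR test with Benjamini-Hochberg adjustment, so neither was called. In CXCL2 the libraries of 1 group spread over the whole range, with 33, 6 and 53 counts in CPT and 26, 50 and 12 in CPT+GTA+5-Aza, and its log2 fold change was -0.00048 (95% interval -1.19 to 1.18).

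**Figure D3:**
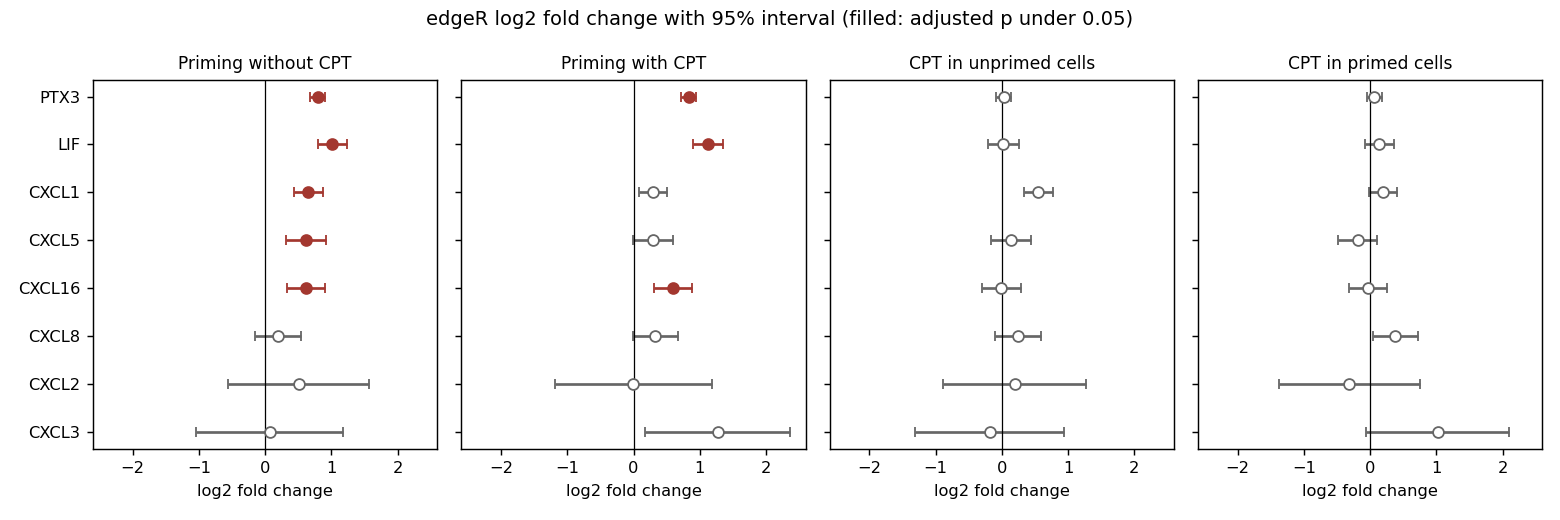
edgeR log2 fold change of each detected member with its 95% interval, in priming without CPT (GTA+5-Aza against Con), priming with CPT (CPT+GTA+5-Aza against CPT), CPT in unprimed cells (CPT against Con) and CPT in primed cells (CPT+GTA+5-Aza against GTA+5-Aza). Filled points have an adjusted p under 0.05, which 5 members reach in the first panel, 3 in the second and 0 in the others.

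The action of CPT itself was measured in unprimed cells by CPT against Con. CXCL1 was 24.0, 25.1 and 23.7 CPM with CPT and 16.6, 17.1 and 16.0 CPM without, a 1.47-fold difference (95% interval 1.26 to 1.71) between groups that did not overlap. Its unadjusted P of 2.19e-05 stood at rank 3 of all tested genes, yet the adjusted p was 0.125 by the edgeR test with Benjamini-Hochberg adjustment. By this test 0 members were called, as were 0.0% of all tested genes, and 1 member had an unadjusted P under 0.05, as did 4.28% of all tested genes. CXCL1 was the 1 member called by other tests, which called few genes in all, 0.0234% in DESeq2, 0.0234% in edgeR's likelihood ratio test and 0.0312% when genes with low counts were kept. For CXCL1 they gave an adjusted p of 0.00162 in DESeq2, 0.00809 in edgeR's likelihood ratio test and 0.0387 when genes with low counts were kept in edgeR. With any 1 library left out its log2 fold change stayed between 0.53 and 0.58.

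Of the other members, PTX3, LIF, CXCL16 and CXCL5 differed little from Con with CPT alone. CXCL8 was higher in all CPT than in all Con libraries, with a log2 fold change of 0.25 (95% interval -0.10 to 0.59). Besides CXCL1 and CXCL8 no member had groups without overlap, and over all tested genes the CPT libraries lay wholly above those of Con in 3.81%. The 95% intervals of the fold change were 0.94 to 1.10 for PTX3, 0.87 to 1.19 for LIF, 0.81 to 1.22 for CXCL16 and 0.89 to 1.36 for CXCL5. A 1.5-fold change of these 4 genes in unprimed cells lies outside the intervals. CXCL2 and CXCL3 had intervals from -0.88 to 1.27 and from -1.31 to 0.94 on the log2 scale.

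In primed cells the libraries of CPT+GTA+5-Aza were set against those of GTA+5-Aza. Here too 0 members and 0.0% of all tested genes were called by the edgeR test with Benjamini-Hochberg adjustment, and 0 members were called by DESeq2 (0.00584% of all tested genes) or by edgeR's likelihood ratio test (0.0175%). CXCL8 had the only unadjusted P under 0.05 among the members (unadjusted P = 0.0300 and adjusted p = 1.00 by edgeR with Benjamini-Hochberg adjustment), a threshold that 2.71% of all tested genes passed. It was 1.30-fold higher with CPT (95% interval 1.03 to 1.64). CXCL1 was higher by a log2 fold change of 0.20 (95% interval -0.02 to 0.41) and CXCL3 by 1.02 (-0.06 to 2.09), whereas CXCL5 was lower in all libraries with CPT (-0.19, 95% interval -0.49 to 0.11). PTX3, CXCL1, CXCL3 and CXCL8 were the 4 members with all CPT libraries above the others, where 4.42% of all tested genes had this, and CXCL5 was the 1 member with all of them below, where 4.74% had this. For LIF and PTX3 the 95% intervals of the fold change were 0.94 to 1.28 and 0.97 to 1.13.

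An interaction term tested whether CPT acted differently once the cells were primed. For CXCL1 the log2 difference between the CPT effects was -0.36 (standard error 0.15, unadjusted P = 0.0244, adjusted p = 1.00 by edgeR with Benjamini-Hochberg adjustment), so that the estimate was smaller in primed cells, without passing the adjusted threshold. It was -0.33 for CXCL5 (standard error 0.21), -0.50 for CXCL2 (0.73) and 1.20 for CXCL3 (0.76). The values of CXCL2 and CXCL3 rest on low counts and are the least certain. Estimates were smaller for CXCL8 (0.13), LIF (0.11), PTX3 (0.04) and CXCL16 (-0.02). By this test 0 members and 0.0% of all genes were called, and 1 member and 2.63% of all genes had an unadjusted P under 0.05. DESeq2 called 0 members and 0.0% of all genes as well. Averaged over unprimed and primed cells, a contrast added after the data were seen, CPT gave a log2 fold change of 0.37 for CXCL1 (standard error 0.07, adjusted p = 0.0937) and 0.31 for CXCL8 (unadjusted P = 0.0130, adjusted p = 1.00 by the edgeR test). In that contrast 0.00584% of all genes were called.

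The full combination was set against Con, a comparison that shares its libraries with those above. Here edgeR called 6 members, all higher, where 9.62% of all tested genes were called higher. CXCL1 was 29.8 ± 1.92 CPM against 16.6 ± 0.556 in Con (1.80-fold), LIF 47.7 ± 5.79 against 21.5 ± 0.728 (2.22-fold), and PTX3 276 ± 5.47 against 152 ± 2.45 (1.81-fold). CXCL16 was 1.503-fold higher (adjusted p = 0.00393 by the edgeR test). CXCL8, at 12.4 ± 0.896 CPM against 8.33 ± 1.35, was called here and in none of the other comparisons by this test, with a log2 fold change of 0.57 and an adjusted p of 0.0165 in the same edgeR test. It was no longer called without Con replicate 2 (adjusted p = 0.0949 by the edgeR test) or without CPT+GTA+5-Aza replicate 1 (0.0722). The call of CXCL5 (log2 fold change 0.43, adjusted p = 0.0430 by the edgeR test) was lost without Con replicate 2 or 3, GTA+5-Aza replicate 1 or any 1 library of CPT+GTA+5-Aza, where the adjusted p was 0.0546 to 0.221.

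Other ligands of the same kinds were then examined. Of 37 listed chemokines and cytokines, 35 were among the identifiers, 16 had 0 counts in all libraries and 10 were tested. Without CPT, 1 was called higher and 1 lower by the edgeR test, close to the shares of all tested genes (9.95% and 7.53%), and the median over the list was 0.31 on the log2 scale. With CPT, 0 were called higher and 1 lower, against 9.57% and 7.39% of all tested genes, and the median was 0.53. These shares are the background for each of the lists that follow. CSF1, the macrophage growth factor, fell in both, by 0.43 and 0.46 on the log2 scale, from 83.8 ± 4.69 CPM in Con to 62.2 ± 3.13 CPM in GTA+5-Aza. CX3CL1, a membrane-bound chemokine, was the 1 called higher without CPT. It had 0 counts in all Con libraries and 0.783 ± 0.187 CPM in GTA+5-Aza, or 5.26-fold or more above what 3 counts in each Con library would give. With CPT it had 0.289 ± 0.175 CPM in CPT+GTA+5-Aza against 0.155 ± 0.135 in CPT. Counts per library were 11 to 17 in GTA+5-Aza, at most 5 in CPT and at most 8 in CPT+GTA+5-Aza. CX3CL1 thus passed the filter on low counts only through the group where it was high. Its call and fold are not separate from that filter.

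The receptors through which the members act, and the proteases that shed them, formed a list of 27 genes, of which 15 were tested. CXCR1, CXCR2 and CCR2, named here as receptors of the members, had 0 counts in every library. CXCR6, the receptor of CXCL16, was detected at a low level. Its mean was 0.310 ± 0.369 CPM in Con, 0.282 ± 0.220 in CPT, 0.467 ± 0.333 in GTA+5-Aza and 0.389 ± 0.287 in CPT+GTA+5-Aza. Without CPT 3 genes were called higher and 1 lower (median log2 fold change 0.25), and with CPT 2 and 1 (median 0.14), by the edgeR test, beside 9.95% of all tested genes called higher without and 9.57% with CPT. The 3 that rose without CPT were IL6R, CNTFR and LIFR, which bind gp130 cytokines. IL6R rose from 1.26 ± 0.663 CPM in Con to 3.35 ± 1.19 CPM in GTA+5-Aza, and CNTFR from 1.20 ± 0.434 to 3.06 ± 0.638 CPM. LIFR, which binds LIF, rose from 2.26 ± 0.436 to 4.22 ± 0.600 CPM (adjusted p = 0.0200 by the edgeR test), and with CPT it had a log2 fold change of 0.65 with an adjusted p of 0.105. The shared chain IL6ST (gp130 itself) and the related chains OSMR and IL11RA, named after their values were seen, were not called in either comparison. Their mean levels in Con and GTA+5-Aza were 81.5 and 84.1 CPM for IL6ST, 21.1 and 25.1 for OSMR, and 1.73 and 2.42 for IL11RA. ADAM10, a protease that sheds CXCL16 and CX3CL1, fell by 0.24 without and by 0.26 with CPT on the log2 scale. Without Con replicate 2 or without Con replicate 3, 2 genes of this list were called in the comparison without CPT.

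Of 32 genes of the NF-kB pathway 31 were tested. Without CPT 2 were called higher and 2 lower (median log2 fold change 0.17), and with CPT 4 and 2 (median 0.09), by the edgeR test. The counts without CPT lay below the shares of all tested genes called higher (9.95%) and close to those called lower (7.53%). With CPT the shares of all tested genes were 9.57% called higher and 7.39% lower. NFKB2, which encodes the p100 precursor of the non-canonical pathway, rose from 25.0 ± 2.02 CPM in Con to 42.5 ± 4.48 CPM in GTA+5-Aza (log2 fold change 0.77, adjusted p = 7.98e-06 by the edgeR test) and by 0.63 with CPT. BCL3, a nuclear IkB protein that binds p50 and p52, rose by a log2 fold change of 0.57 without and 0.43 with CPT. RELB (0.37) and MYD88 (0.67), the adaptor of Toll-like and IL-1 receptors, were called with CPT, and without CPT they had log2 fold changes of 0.20 and 0.30. NFKBIA, the inhibitor IkB-alpha and itself an NF-kB target, fell by 0.31 without and by 0.27 with CPT on the log2 scale. RIPK1, a kinase downstream of the TNF receptor, fell by 0.34 and 0.36. Members of the list thus moved in both directions, and the counts changed with the settings, to 8 without CPT when libraries were scaled by size alone and to 2 with CPT when CPT replicate 1 or CPT+GTA+5-Aza replicate 3 was left out.

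All 15 genes listed for signalling downstream of gp130 were tested. Without CPT 1 was called higher and 2 lower (median log2 fold change 0.06), and with CPT 2 and 2 (median -0.00404), by the edgeR test, where the shares of all tested genes were 9.95% and 7.53% without and 9.57% and 7.39% with CPT. STAT3, the transcription factor activated by LIF and IL6, fell from 159 ± 9.35 CPM in Con to 111 ± 1.53 CPM in GTA+5-Aza (log2 fold change -0.52, adjusted p = 4.13e-06 by the edgeR test) and by 0.42 with CPT on the log2 scale. PTPN11, the phosphatase SHP2, fell by 0.21 and 0.22. STAT5B rose by a log2 fold change of 0.36 without and 0.34 with CPT. PIM1, a kinase induced through STAT proteins, was called with CPT (0.66) and had 0.36 without (adjusted p = 0.0785 by the edgeR test). In GTA+5-Aza, LIF and LIFR were thus higher than in Con while STAT3 mRNA was lower.

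The last list held 12 C/EBP factors and proteins that set the stability of cytokine mRNA, and all were tested. In both priming comparisons 3 were called higher and 1 lower by the edgeR test with Benjamini-Hochberg adjustment. Of all tested genes 9.95% were called higher and 7.53% lower without CPT, and 9.57% and 7.39% with CPT. The median log2 fold change over the list was -0.04 without and -0.05 with CPT. CEBPB, a C/EBP factor that acts on many inflammatory genes, rose from 20.6 ± 2.82 CPM in Con to 33.8 ± 3.28 CPM in GTA+5-Aza (log2 fold change 0.71, adjusted p = 0.000124 by the edgeR test) and by 0.38 with CPT. CEBPD rose by a log2 fold change of 0.90 without and 1.04 with CPT, at levels of 3.06 ± 0.656 CPM in Con and 5.72 ± 0.156 CPM in GTA+5-Aza. ZFP36, also called tristetraprolin, which promotes the decay of mRNAs with AU-rich elements, rose by 0.71 and 0.97. Its relative ZFP36L1 fell by 0.36 and 0.29 on the log2 scale, from 164 ± 10.3 CPM in Con to 128 ± 3.75 CPM in GTA+5-Aza. Only 2 genes of the list were called without CPT when Con replicate 3, GTA+5-Aza replicate 1 or GTA+5-Aza replicate 3 was left out, and 2 with CPT when CPT+GTA+5-Aza replicate 2 or 3 was left out. In none of the 5 lists was a gene called for CPT in unprimed or in primed cells by this test.

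**Figure D4:**
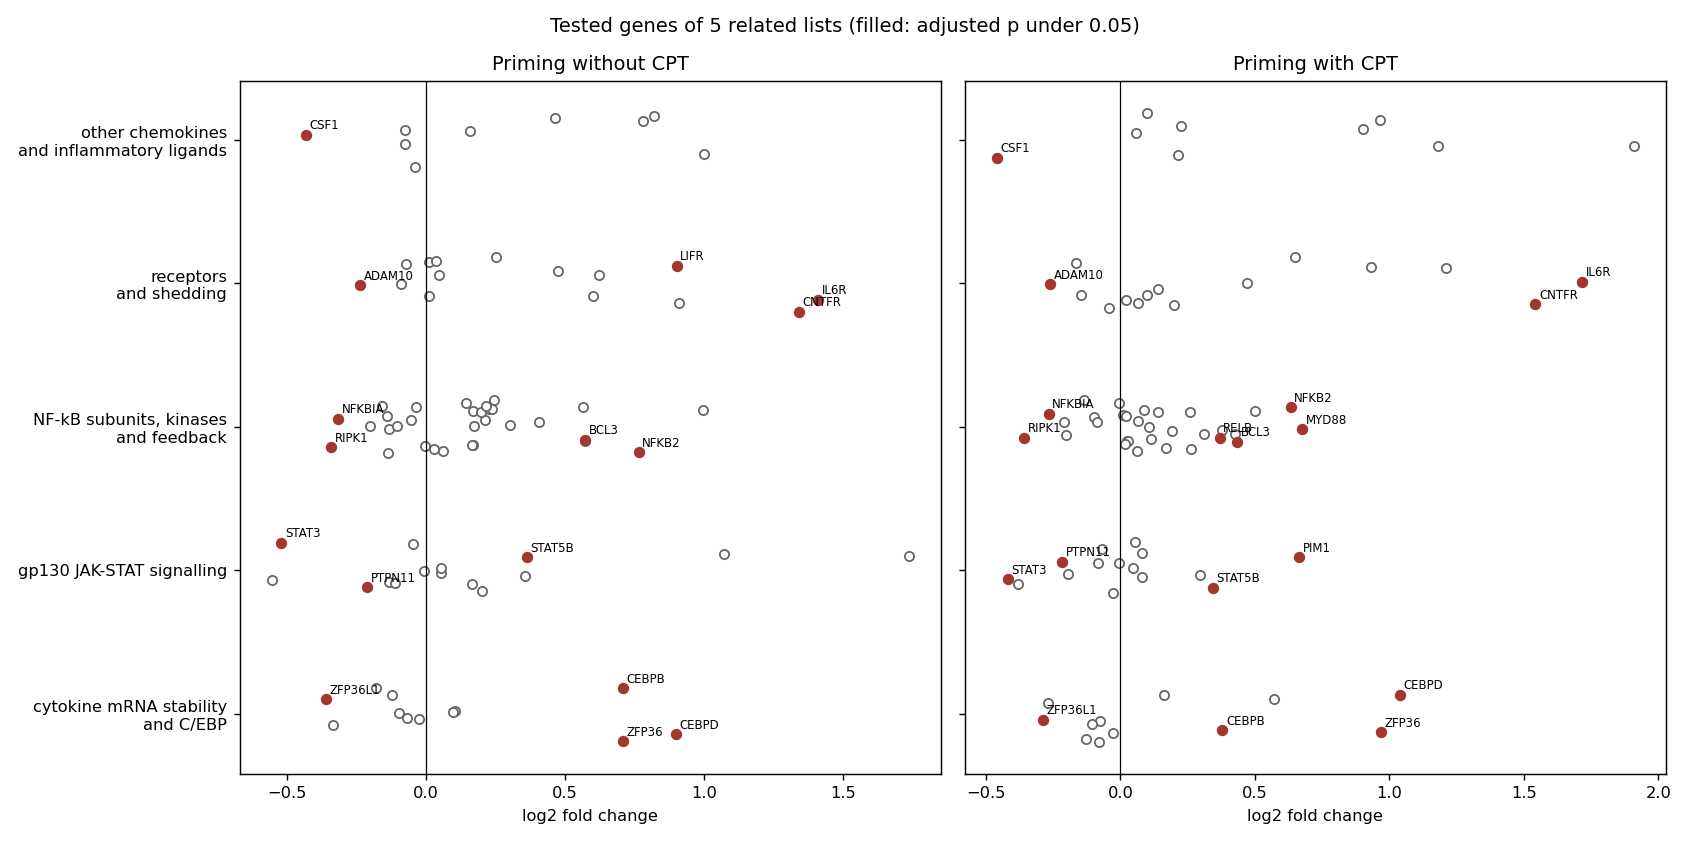
edgeR log2 fold change of the tested genes of 5 related lists, in priming without CPT (left) and with CPT (right), with filled and named points at an adjusted p under 0.05 and CX3CL1 left out because Con had 0 counts. NFKB2 (0.77 and 0.63), CEBPB (0.71 and 0.38) and CEBPD (0.90 and 1.04) lie to the right in both panels, and STAT3 (-0.52 and -0.42) and CSF1 (-0.43 and -0.46) to the left.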

How the data were processed

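RNA-seq was performed on 12 MiaPaca2 libraries. Per the labels and the study's methods, paired-end reads of 150 bp went through Trim Galore, alignment by HISAT2 2.2.1 on GRCh38 and HTSeq, and the authors deposited the counts per gene as whole numbers without normalization. The annotation release, the strand setting and the handling of reads that map to several genes are not given in the sources used here. The sample labels gave the group and the replicate number. Rows that name no gene held 0.0% of counts.

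Counts were fitted in R 4.3.3 with edgeR 4.0.16 and limma 3.58.1: filterByExpr on the 4 groups, TMM scaling, glmQLFit and glmQLFTest over all 12 libraries in 1 fit, with group only, and Benjamini-Hochberg adjustment over 17123 genes (common dispersion 0.0101). Genes were called at an adjusted p under 0.05. CPM used TMM-scaled library sizes. CPM per kb used the union of GENCODE release 44 exons. The test was checked on simulated counts. Replicates were compared by chi-square, and none was a repeat (3.88 to 16.6 per degree of freedom). Alternatives were DESeq2 1.42.0, other scalings, filters and tests, fewer groups, a replicate block and leaving out each library.

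The members and the gene lists were chosen with earlier results of these data known. Named genes are the 10 members and, of each other list, up to 8 genes by the smallest p with an adjusted p under 0.05 in either priming comparison. Receptors at 0 counts, CXCR6, marker genes, neighbours in the chromosome 4 cluster and overlapping genes are named outside this rule. Intervals are at 95% and, like the limit of 3 counts at 0, cover these libraries only.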

Additional observations from a re-analysis of the deposited data

How the results depend on the processing

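Of the 14 member values called by edgeR, PTX3 and LIF kept their direction and call under every alternative, and the others kept their direction. Tested against a fold change of 1.5 (glmTreat), which asks for a larger change by construction, the members called numbered 2 in priming without CPT and 2 in the full combination. In priming with CPT the call of CXCL16 was lost as well, and those of PTX3 and LIF stayed. Under glmTreat the lists without CPT had 1 other ligand and 0 receptors, 0 NF-kB, 0 gp130 and 0 C/EBP or stability genes called, and with CPT 0 in each of the 5 lists. The likelihood ratio test called 5 members in priming with CPT. For CPT in unprimed cells and for CPT averaged over both, 1 member, CXCL1, was called with no filter on low counts, in DESeq2 and in the likelihood ratio test. Without CPT, other ligands called numbered 1 with a filter at a CPM of 1, and NF-kB genes numbered 8 with library size alone, 7 with no filter and 7 with only the groups compared. With CPT, DESeq2 called 5 receptors. The causes were not tested.

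With 1 library left out, members called ranged from 4 to 6 in the full combination and did not move in the other comparisons. Without CPT the range was 2 to 4 for receptors, 3 to 7 for NF-kB genes (7 without CPT replicate 2 or 3) and 2 to 4 for C/EBP and stability genes. With CPT it was 1 to 2 for other ligands (2 without CPT replicate 1), 2 to 9 for NF-kB genes and 2 to 4 for C/EBP and stability genes. Signs turned only in values that were not called. Log2 fold changes ran, for CXCL2, from -0.64 to 0.66 in priming with CPT, -0.48 to 0.70 for CPT in unprimed cells, -0.95 to 0.030 for CPT in primed cells, -0.44 to 0.54 in the full combination, -1.14 to 0.16 in the interaction and -0.39 to 0.19 for CPT averaged. They ran for CXCL3 from -0.19 to 0.60 in priming without CPT and -0.47 to 0.35 for CPT in unprimed cells, and for CXCL5 from -0.084 to 0.058 for CPT averaged. For CXCL16 they ran from -0.15 to 0.15 for CPT in unprimed cells, -0.082 to 0.011 for CPT in primed cells, -0.19 to 0.12 in the interaction and -0.093 to 0.060 for CPT averaged. CXCL8 ran from -0.010 to 0.28 in the interaction and LIF from -0.00071 to 0.059 for CPT in unprimed cells.

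The log2 fold change of CXCL2 in priming with CPT was -0.00048 and turned sign to 0.042 with library size alone, 0.0025 with no filter, 0.0024 with a filter at a CPM of 1, 0.00028 with only the groups compared and 0.093 with the replicate block. Deviations of libraries with the same number had correlations from -0.43 to 0.56 and were not all above 0.1 in any comparison, so the replicate numbers were not taken as pairs. With the replicate number as a block 5, 3, 0, 0 and 6 members were called in priming without and with CPT, CPT in unprimed and primed cells, and the full combination, and the block changed no call of a member. Low counts limit CXCL2 and CXCL3, with 6 to 53 and 9 to 32 counts per library.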
